A study of Mus musculus with 12 samples.

Results

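The translation initiation factor genes were taken as the genes whose symbol in the platform annotation starts with Eif and a digit, with the Y-linked Eif2s3y left out, and each was represented by 1 probe set, that with the highest mean over the 12 arrays among probe sets tied to exactly 1 gene. This gave 46 genes of the 18193 measured. The choice of probe set used its mean level over all arrays and not the difference between fractions. The family itself was chosen with earlier results of these data known. The arrays were Affymetrix mouse arrays of total RNA from keratinocytes of the skin of C57 DBA mice, sorted with magnetic beads (MACS) into cells that carry CD34, a sialomucin found on bulge cells of hair follicles, and cells that do not. There were 6 arrays titled CD34+ and 6 titled CD34-, from 3 isolations that each pooled at least 6 mice, with each RNA placed on 2 arrays. No treatment or transgene was named for either fraction, and the age of the mice was not given. Values are log2 expression after RMA, a method that summarises the probes of a probe set, and a difference of 1 is a doubling.

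Initiation factors bring the initiator tRNA, the small ribosomal subunit and the mRNA together and place the ribosome at the start codon. The factor eIF2 carries the initiator tRNA, eIF2B recharges eIF2 with GTP, eIF3 is a large scaffold on the small subunit, and the eIF4 group binds the mRNA cap and unwinds the leader. The factors eIF1, eIF1A, eIF5 and eIF5B act in start codon choice and subunit joining, eIF5A acts mainly in elongation, and eIF6 binds the large subunit. In skin, hair follicle stem cells are known for a lower rate of protein synthesis than their progeny. The Eif symbols also cover kinases that phosphorylate eIF2 and proteins that hold eIF4E away from the cap.

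Several measures moved with the fraction. The sort marker Cd34 was 6.92 log2 units higher in CD34+ arrays, and 8 of 8 fixed bulge markers passed as higher. All 10 keratinocyte markers were measured, 6 of them lower in CD34+ arrays, with a summed level (log2 of the sum of linear values) of 14.92 to 15.51 in CD34+ and 15.36 to 15.90 in CD34- arrays. All 8 measured T cell markers were lower in CD34+ arrays, with a summed level of 8.50 to 9.85 against 10.72 to 11.67, and the defining T cell markers Cd3g (5.78 in CD34+ against 9.07 in CD34- arrays) and Cd3e (6.97 against 7.57) stayed above the 2.31 to 2.95 read by the 3 Trpn control probe sets, which mark the low end of the scale. Proliferation genes were lower for 14 of 17 and higher for 0, with summed levels of 11.47 to 12.37 against 12.41 to 13.34. Langerhans and myeloid markers were lower for 5 of 10 (9.43 to 9.81 against 9.92 to 10.94), fibroblast markers higher for 4 of 8 (10.08 to 12.24 against 9.50 to 10.65), melanocyte markers higher for 2 and lower for 1 of 7 (10.01 to 11.04 against 8.49 to 8.85), and 0 of 7 endothelial markers passed limma's test (6.89 to 7.33 against 6.78 to 6.97). The gap between the Actb controls that read the 3' end and the 5' end of the transcript, a measure of RNA or labelling quality, was 4.54 ± 0.66 (SD, n = 6) in CD34+ and 2.48 ± 0.49 in CD34- arrays, and the fractions did not overlap. These are 6 arrays of 3 RNA samples a fraction, so no test is given. CD34+ arrays 1, 3 and 5 had a spread over probe sets (SD) of 1.92 to 2.07, against 2.19 to 2.32 for the other 9 arrays. The part of these measures in the results below was not tested, and in bulk samples fewer cells of a type and less RNA per cell cannot be told apart.

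Of the 46 initiation factor genes, 22 were lower and 2 higher in CD34+ cells (limma, p adjusted by Benjamini-Hochberg across all genes and under 0.05), and 22 did not pass. Over all genes 26.1% were called, 18.1% lower and 7.99% higher, and among the genes with a mean of at least 4 on the log2 scale, which hold 45 of the 46, 27.3% were called lower. The median log2 difference, CD34+ minus CD34-, was -0.41 over the members and 0.040 over all genes, a gap of -0.45. Among genes with a mean of at least 4 the all-gene median was -0.15 and the gap -0.27, and with the mean of all probe sets of a gene the gap was -0.30. In all 38 of the 46 members lay below 0, against 45.4% of all genes. Of the falls 6 reached a factor of 2 or more, those of Eif4e, Eif3m, Eif5b, Eif2s3x, Eif5a and Eif2b5, and neither rise did. The 6 CD34+ arrays all lay below the 6 CD34- arrays for 8 members, where 8.77% of all genes did so, and all above them for Eif5a2 and Eif4a3, where 4.17% did. CD34+ arrays 1, 3 and 5 were then removed, a step decided on with the data in view that leaves fewer arrays to test. In that fit 11 members were lower and 5 higher, with a median of -0.23, beside 10.4% of all genes lower and 8.81% higher. After a further quantile normalization of the 12 arrays 16 members were lower and 6 higher, with a median of -0.15, beside 13.7% and 11.5% of all genes.

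**Figure D1:**
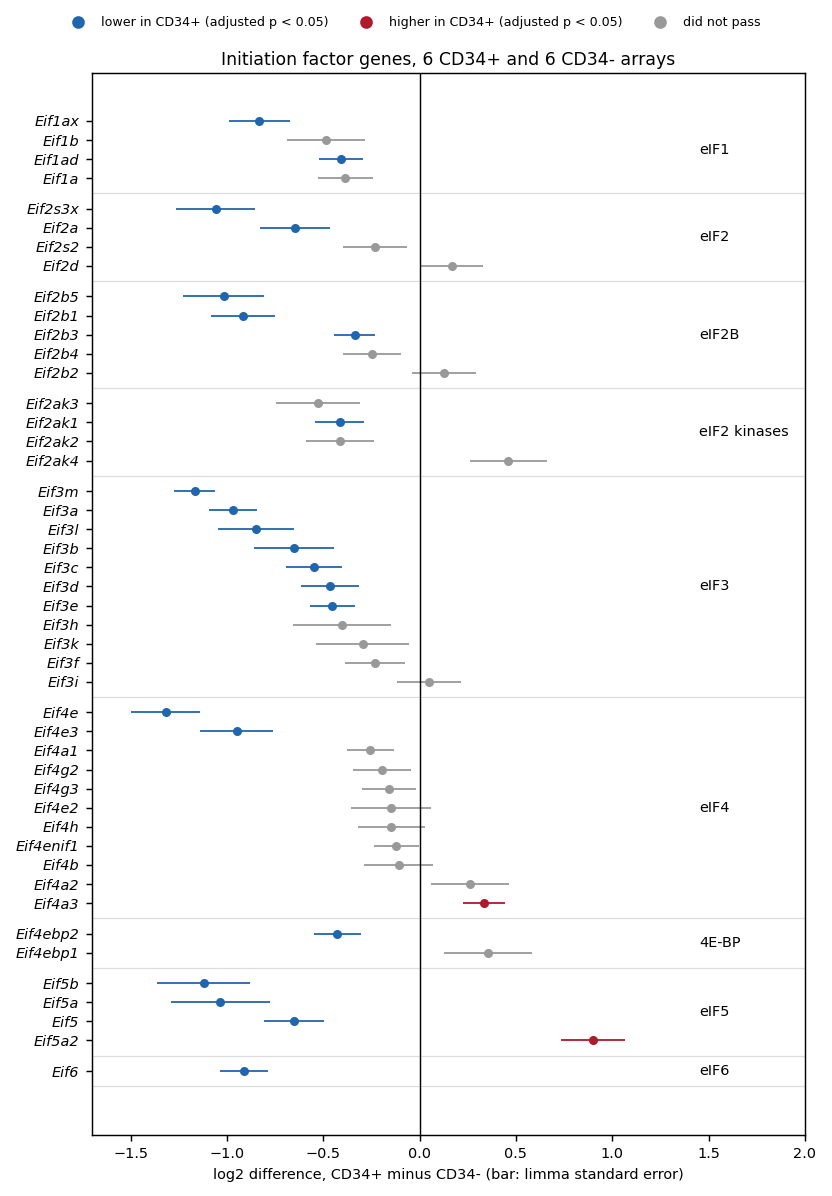
Log2 difference between CD34+ and CD34- arrays (x axis, CD34+ minus CD34-) of the 46 initiation factor genes, grouped by factor, with limma's standard error as bars and colour for the call at an adjusted p under 0.05. Of the points 22 are called lower and 2 higher, with Eif4e lowest at -1.32 and Eif5a2 highest at 0.90.

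Counts by group are given beside the 18.1% lower and 7.99% higher of all genes. The eIF3 scaffold had 7 of 11 members lower and 0 higher, with a median difference of -0.46. The eIF4 group, of the same size, had 2 lower and 1 higher of 11 (18.2% and 9.09%), with a median of -0.15. These shares are near those of all genes, and the share lower is below that of genes with a mean of at least 4. The eIF5 group had 3 lower and 1 higher of 4, eIF2B 3 lower of 5, the eIF2 group and the eIF1 group 2 lower of 4 each, the eIF2 kinases 1 lower of 4, the eIF4E-binding proteins 1 lower of 2, and the single eIF6 gene was lower. Differences between these groups were not tested. After the further quantile normalization eIF3 had 5 lower and 1 higher with a median of -0.29, and eIF4 had 1 lower and 1 higher with a median of 0.12. Without CD34+ arrays 1, 3 and 5 these counts were 3 lower and 0 higher for eIF3 (median -0.33) and 2 lower and 0 higher for eIF4 (median 0.065).

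Within the eIF4 group the cap-binding protein gene Eif4e had the largest fall of all members. It read 6.75 at the lowest, 7.47 at the median and 7.90 at the highest CD34+ array, and 8.50, 8.82 and 8.90 in CD34- arrays. The fractions did not overlap, and CD34+ array 3 was the lowest of the 12. The log2 difference was -1.32 (SE 0.18, adjusted p = 0.000147), and it was -0.96 (adjusted p = 0.000220) without CD34+ arrays 1, 3 and 5. The other probe sets tied to Eif4e did not pass, at -0.30 (adjusted p = 0.180 among all probe sets), -0.10 (adjusted p = 0.779) and 0.10 (adjusted p = 0.470). Their means over the 12 arrays were 8.01, 5.00 and 3.09, and that of the probe set used was 8.11. The size of the fall thus differed between 2 probe sets of nearly the same level.

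The related cap-binding gene Eif4e3 read 7.13, 7.47 and 8.30 (lowest, median and highest) in CD34+ and 8.27, 8.43 and 8.85 in CD34- arrays. The fractions overlapped by 1 CD34+ array, number 3, which was the highest of its fraction. Eif4e3 fell by 0.95 (SE 0.19, adjusted p = 0.00232), and its other probe set fell by 0.82 (adjusted p = 0.00127 over all probe sets). After the further quantile normalization the difference was -0.64 and did not pass (adjusted p = 0.0660). Eif4e2, whose product binds the cap in translational repression, read 8.05, 8.92 and 9.49 in CD34+ and 8.80, 9.05 and 9.27 in CD34- arrays. The CD34+ arrays spanned the whole range of the CD34- arrays, and the difference of -0.15 (SE 0.21, adjusted p = 0.604) did not pass and was 0.28 without CD34+ arrays 1, 3 and 5. Another probe set of Eif4e2 fell by 0.75 (adjusted p = 0.000337 over all probe sets).

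**Figure D2:**
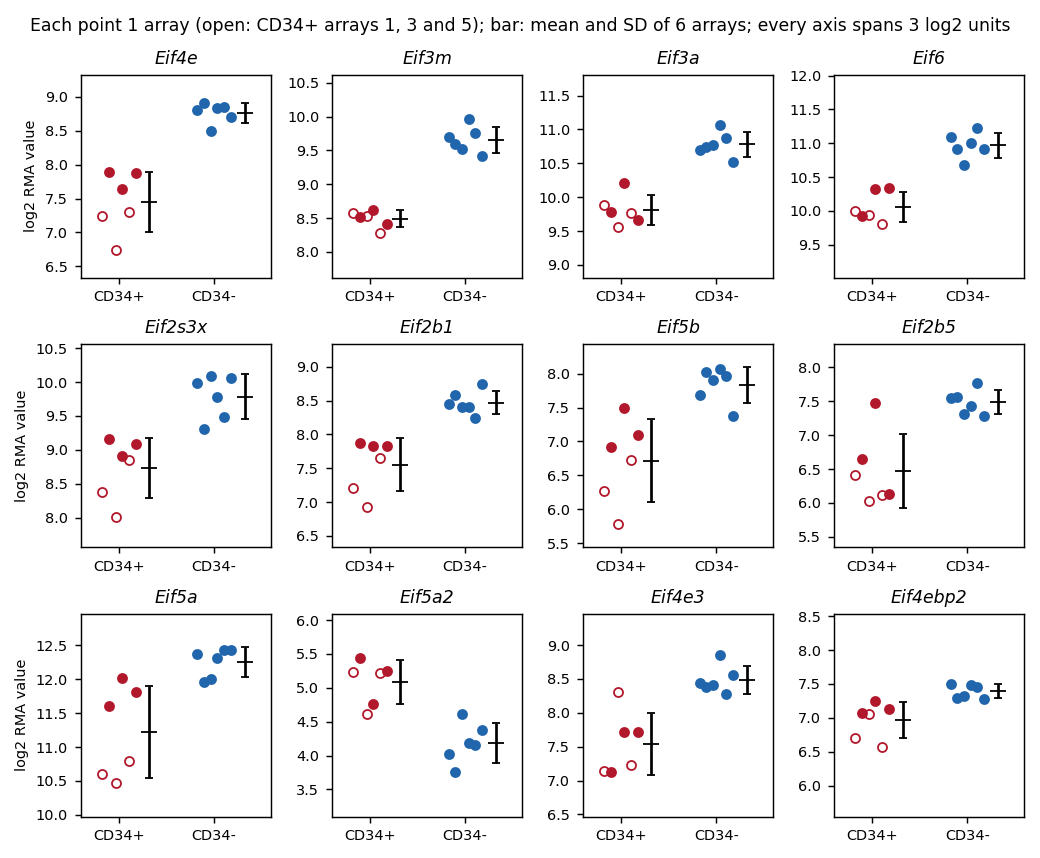
Log2 RMA values of 12 initiation factor genes in each of the 12 arrays, with the mean and SD of the 6 arrays of a fraction beside the points and open symbols for CD34+ arrays 1, 3 and 5. The fractions do not overlap for Eif4e, Eif3m, Eif3a, Eif6, Eif2s3x, Eif2b1, Eif4ebp2 and Eif5a2, and in Eif5a the 3 open symbols lie below the 3 filled ones.

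The RNA helicase genes of the group were not called lower. Eif4a1 read 9.77, 10.26 and 10.42 in CD34+ and 10.24, 10.41 and 10.52 in CD34- arrays, and its difference of -0.25 (SE 0.12, adjusted p = 0.137) did not pass and was 0.012 after the further quantile normalization. Eif4a2 read 9.31, 10.01 and 10.20 against 9.10, 9.57 and 10.45, a difference of 0.26 (SE 0.20, adjusted p = 0.340) that passed as higher after the further quantile normalization (0.53, adjusted p = 0.0302). In both genes the fractions overlapped. Eif4a3, a helicase of the exon junction complex, passed as higher, at 3.95, 4.00 and 4.52 in CD34+ and 3.62, 3.75 and 3.87 in CD34- arrays, a difference of 0.33 (SE 0.11, adjusted p = 0.0362). This probe set lay nearer to the Trpn controls than most of the others used, and its call ended when 1 of 6 single arrays was dropped (number 5 of CD34+, numbers 1, 3, 4, 5 and 6 of CD34-). A probe set that the annotation ties to both Eif4a3 and Gm5576, and that the rule therefore left out, had a mean of 8.89 ± 0.30 (SD, n = 6) over CD34+ and 9.82 ± 0.25 over CD34- arrays and was lower in CD34+ cells by limma, at -0.93 (adjusted p = 0.000792 over 45037 probe sets). The direction for Eif4a3 thus differed between the probe sets.

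The scaffold genes of the group did not pass. Eif4g2 read 11.62, 12.13 and 12.38 in CD34+ and 11.83, 12.32 and 12.42 in CD34- arrays (-0.19, SE 0.15, adjusted p = 0.343), and Eif4g3 read 6.76, 7.12 and 7.58 against 7.21, 7.33 and 7.47 (-0.16, SE 0.14, adjusted p = 0.402), with the fractions overlapping in both. Eif4g1 was not analysed here. The helicase cofactors Eif4b (-0.11, adjusted p = 0.663) and Eif4h (-0.15, adjusted p = 0.538) and the eIF4E transporter gene Eif4enif1 (-0.12, adjusted p = 0.449) did not pass either. Both other probe sets of Eif4b were lower (-0.78 and -0.39, with adjusted p = 0.00561 and 0.0116 over all probe sets).

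The eIF4E-binding proteins compete with the scaffold for eIF4E when mTOR is inactive. Eif4ebp2 read 6.57, 7.07 and 7.25 in CD34+ and 7.28, 7.39 and 7.50 in CD34- arrays. The fractions were apart by a narrow margin, and the gene fell by 0.43 (SE 0.12, adjusted p = 0.0191), a call that was lost without CD34+ arrays 1, 3 and 5 (-0.24, adjusted p = 0.0979) and after the further quantile normalization (-0.14, adjusted p = 0.410). Another probe set of Eif4ebp2 fell by 1.54 (adjusted p = 5.60e-05 over all probe sets). Eif4ebp1 read 7.46, 8.07 and 8.83 in CD34+ arrays, and in CD34- arrays 7.50 at the lowest and 7.72 at the median, with the highest still below the CD34+ median. The fractions overlapped, and its difference of 0.35 (SE 0.23, adjusted p = 0.255) did not pass. It passed as higher without CD34+ arrays 1, 3 and 5 (0.85, adjusted p = 0.00240) and after the further quantile normalization (0.65, adjusted p = 0.00428). Its further probe sets gave -0.16 and 0.040. Eif4ebp3 shares its probe set with Ankhd1, which was at 0.15 (adjusted p = 0.507 over 45037 probe sets).

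In the eIF3 complex Eif3m had the smallest adjusted p of all members. This subunit gene read 8.28, 8.52 and 8.62 in CD34+ and 9.41, 9.64 and 9.96 in CD34- arrays. The gap between the fractions was wider than the range of either, and the log2 difference was -1.17 (SE 0.11, adjusted p = 7.48e-06), 2.25-fold, and -1.14 without CD34+ arrays 1, 3 and 5. Eif3a, which encodes the largest subunit, read 9.56, 9.77 and 10.21 against 10.53, 10.76 and 11.06, also without overlap, and fell by 0.97 (SE 0.12, adjusted p = 9.83e-05). Of the other 3 probe sets of Eif3a, 1 was lower, at -1.02 (adjusted p = 4.87e-05 among all probe sets), and the others were at -0.38 and -1.10 without passing.

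Eif3l (-0.85), the core subunit genes Eif3b (-0.65) and Eif3c (-0.55), the cap-binding subunit gene Eif3d (-0.46) and Eif3e (-0.45) fell as well. Their fractions overlapped in each case. The Eif3b call ended when 1 of 8 single arrays was dropped (numbers 1, 3 and 5 of CD34+, numbers 1, 3, 4, 5 and 6 of CD34-). The Eif3d call ended for 1 of 6 (numbers 2, 5 and 6 of CD34+, numbers 3, 4 and 5 of CD34-). Without CD34+ arrays 1, 3 and 5 together, Eif3a, Eif3c and Eif3m kept their call, and Eif3l (-0.52, adjusted p = 0.0815) and Eif3e (-0.32, adjusted p = 0.0636) did not. Eif3c in turn was not called after the further quantile normalization (-0.30, adjusted p = 0.120) or with the mean of all probe sets of a gene (-0.18, adjusted p = 0.406), and its 3 other probe sets did not pass, at -0.11, -0.46 and 0.39. With that mean of all probe sets Eif3l was at -0.21 (adjusted p = 0.0929) and Eif3d at -0.16 (adjusted p = 0.172). Eif3f (-0.23), Eif3h (-0.40), Eif3k (-0.30) and Eif3i (0.048) did not pass. Eif3h had the widest CD34+ range of these 4, from 9.78 to 11.47. The 3 probe sets shared by Eif3j1 and Eif3j2 were at -0.087, -0.16 and -1.06, and the last of these was lower (adjusted p = 3.17e-05 over 45037 probe sets). Eif3g was not analysed here.

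Of the eIF2 subunits, Eif2s3x, which encodes the gamma subunit that binds GTP and the initiator tRNA, read 8.01, 8.88 and 9.15 in CD34+ and 9.31, 9.88 and 10.10 in CD34- arrays. The fractions did not overlap, and the log2 difference was -1.06 (SE 0.20, adjusted p = 0.00191). All 3 of its probe sets were lower. Eif2s2, the beta subunit gene, was at -0.23 (SE 0.17, adjusted p = 0.306) and did not pass, and it was 0.11 without CD34+ arrays 1, 3 and 5. Eif2s1, which encodes the alpha subunit, was not analysed here. Among factors that deliver tRNA independently of eIF2, Eif2a fell by 0.65 (SE 0.18, adjusted p = 0.0178) and Eif2d was at 0.17 (SE 0.16, adjusted p = 0.449). With CD34+ arrays 1, 3 and 5 left out Eif2a missed the threshold (-0.32, adjusted p = 0.179), while Eif2d passed as higher (0.48, adjusted p = 0.00978). Another probe set of Eif2d, with a mean of 7.60, was called lower on the 12 arrays (-0.48, adjusted p = 0.0229 over all probe sets), and a further one, with a mean of 3.31, was called higher (0.34, adjusted p = 0.0170). With the mean of all probe sets Eif2a was at -0.27 and did not pass (adjusted p = 0.169).

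The exchange factor eIF2B had 3 of 5 subunit genes lower. Eif2b5, which encodes the catalytic epsilon subunit, read 6.03, 6.27 and 7.47 in CD34+ and 7.28, 7.49 and 7.76 in CD34- arrays. A single CD34+ array, number 4, reached into the CD34- range, and the difference was -1.02 (SE 0.21, adjusted p = 0.00298). Its other probe set, with a mean of 3.62, was at 0.20 and did not pass. Eif2b1, the alpha subunit gene, read 6.93, 7.74 and 7.87 against 8.24, 8.43 and 8.74 without overlap, and fell by 0.92 (SE 0.16, adjusted p = 0.00117). Eif2b3 fell by 0.34 (adjusted p = 0.0316) and lost its call when 1 of 7 single arrays was dropped (numbers 1, 5 and 6 of CD34+, numbers 1, 3, 4 and 6 of CD34-). Eif2b4 (-0.25) and Eif2b2 (0.13) did not pass, and Eif2b2 passed as higher without CD34+ arrays 1, 3 and 5 (0.46, adjusted p = 0.0296) and after the further quantile normalization (0.43, adjusted p = 0.00442).

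The eIF2 kinases answer different stresses, Eif2ak1 (HRI) haem shortage, Eif2ak2 (PKR) double-stranded RNA, Eif2ak3 (PERK) unfolded protein in the endoplasmic reticulum and Eif2ak4 (GCN2) amino acid shortage. Eif2ak1 read 5.72, 5.98 and 6.28 in CD34+ and 6.12, 6.43 and 6.76 in CD34- arrays and fell by 0.41 (SE 0.13, adjusted p = 0.0280). That call ended whenever 1 of 4 single arrays was dropped (CD34+ array 1 or 5, CD34- array 4 or 5), and none of its other 4 probe sets passed by limma. Eif2ak2 read 4.05, 4.21 and 4.34 against 4.09, 4.56 and 5.42 (-0.41, SE 0.17, adjusted p = 0.0944). It passed as lower after the further quantile normalization (-0.48, adjusted p = 0.0351), and with the mean of all probe sets it was at -0.12 (adjusted p = 0.348). Eif2ak3 read 6.32, 7.14 and 7.72 against 7.27, 7.56 and 7.95 (-0.53, SE 0.22, adjusted p = 0.0870). It passed as lower with means of the assumed array pairs 1-2, 3-4 and 5-6 (adjusted p = 0.0367). Without CD34+ arrays 1, 3 and 5 it was at -0.084 (adjusted p = 0.766). Eif2ak4 lay the other way, at 5.09, 5.51 and 6.23 against 4.91, 5.16 and 5.32 (0.46, SE 0.20, adjusted p = 0.104), and passed as higher without CD34+ arrays 1, 3 and 5 (0.69, adjusted p = 0.0397). The fractions overlapped for all 4 kinases.

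The eIF1 group holds scanning factors. Eif1ax, the X-linked gene of eIF1A, read 8.44, 9.23 and 9.46 in CD34+ and 9.84, 9.93 and 10.19 in CD34- arrays, without overlap, and fell by 0.83 (SE 0.16, adjusted p = 0.00166). The 2 further probe sets gave -0.34 and 0.40 and did not pass, and with the mean of all 3 the call was lost (-0.26, adjusted p = 0.244). The paralogue Eif1a read 6.75, 7.29 and 7.65 against 7.44, 7.59 and 7.88, and its difference of -0.38 (SE 0.14, adjusted p = 0.0622) did not pass, while its other probe set was lower (-0.95, adjusted p = 0.0137 over all probe sets). Eif1b read 7.17, 7.90 and 8.40 against 8.09, 8.33 and 8.69 and did not pass (-0.49, SE 0.20, adjusted p = 0.0938). Eif1ad, named for its eIF1A-like domain, fell by 0.41 (adjusted p = 0.0181). That call was lost after the further quantile normalization (-0.099, adjusted p = 0.660) and without CD34+ arrays 1, 3 and 5 (-0.40, adjusted p = 0.0719), while its other probe set was lower (-0.89, adjusted p = 0.00157). Eif1 was not analysed here.

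The eIF5 group held a pair of paralogues that moved in opposite directions. Eif5a and Eif5a2 encode the 2 forms of eIF5A, the protein that carries the modified lysine hypusine. Eif5a read 10.47, 11.21 and 12.02 in CD34+ and 11.95, 12.35 and 12.43 in CD34- arrays. CD34+ arrays 1, 3 and 5 were the 3 lowest, array 4 reached into the CD34- range, and the gene fell by 1.04 (SE 0.26, adjusted p = 0.00918). Its other probe set fell by 1.30 (adjusted p = 0.000317 over all probe sets). Without CD34+ arrays 1, 3 and 5 the difference was -0.44 and did not pass (adjusted p = 0.0535).

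Eif5a2 went the other way. It read 4.62, 5.22 and 5.44 in CD34+ and 3.75, 4.17 and 4.61 in CD34- arrays, with all CD34+ arrays above all CD34- arrays, though the closest pair, at 4.62 and 4.61, nearly touched. The log2 difference was 0.90 (SE 0.17, adjusted p = 0.00150), 1.87-fold, and 0.96 without CD34+ arrays 1, 3 and 5 (adjusted p = 0.00538). The level of Eif5a2 was low, with a mean of 4.63 over the 12 arrays. Among the members only Eif4a3 (3.92) and Eif2ak2 (4.42) had a lower mean. The other probe set of Eif5a2, with a mean of 3.54, did not pass (0.13, adjusted p = 0.435 over all probe sets). The enzymes that make hypusine moved in opposite directions, with Dhps higher (0.57, adjusted p = 0.0198) and Dohh lower (-0.47, adjusted p = 0.0427).

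Promoter sequence was read for the genes with the largest fall and with these opposite changes, to show where they carry the E-box CACGTG, the site of MYC and related factors, which is its own reverse complement. The stretches are the 150 bases before an annotated start in RefSeq (GRCm38.p6), 5′ to 3′ on the gene's strand, with each E-box in capitals. That of Eif4e is chr3:138527118-138527267 on the plus strand, that of Eif5a is chr11:69921387-69921536 on the minus strand, and that of Eif5a2 is chr3:28781127-28781276 on the plus strand.
Eif4e: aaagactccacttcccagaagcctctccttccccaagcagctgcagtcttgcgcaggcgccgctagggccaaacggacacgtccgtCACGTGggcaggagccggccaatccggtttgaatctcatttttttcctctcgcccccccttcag
Eif5a: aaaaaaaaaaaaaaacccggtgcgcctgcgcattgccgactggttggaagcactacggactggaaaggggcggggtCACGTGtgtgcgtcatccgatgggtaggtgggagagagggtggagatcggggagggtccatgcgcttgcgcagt
Eif5a2: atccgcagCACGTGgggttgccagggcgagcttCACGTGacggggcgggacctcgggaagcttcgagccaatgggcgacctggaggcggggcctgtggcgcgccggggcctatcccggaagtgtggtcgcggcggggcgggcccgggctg
The starts shown were picked because their stretch holds an E-box, 1 each for Eif4e and Eif5a and 2 for Eif5a2. Eif4e has 2 annotated starts and Eif5a has 6, and the same 150 bases at the other starts hold no E-box. Farther out than these 150 bases, a further E-box lies at -178 from another Eif5a start and at -228 from the Eif4e start shown. Promoter windows of 300 bases (250 before and 50 after a start) were found for 37 of the 46 members. The E-box was in 9 of these genes, 3 of 18 called lower (Eif4e, Eif5a and Eif3a), 1 of 2 called higher and 5 of 17 that did not pass. By windows, 11 of the 50 of the members held it (22.0%), and 7.15% of all 32851 windows did. Some of these windows overlap, and the Eif5a windows with the E-box at -74 and at -185 hold the same site. The share by gene was not taken over all genes, so an excess among the members was not tested. The other motifs looked for were in 0 of the 50 windows (0.895% of all windows) and in 1 of the 50 (0.971%). A match is a description of the sequence and not a bound site.

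Eif5 and Eif5b act in start codon recognition and subunit joining. Eif5b read 5.78, 6.82 and 7.50 in CD34+ and 7.37, 7.94 and 8.07 in CD34- arrays, with CD34+ array 4 inside the CD34- range, and fell by 1.12 (SE 0.24, adjusted p = 0.00391). A further probe set of Eif5b fell by 0.87 (adjusted p = 0.0327 over all probe sets). Eif5 fell by 0.65 (SE 0.16, adjusted p = 0.00721), and without CD34+ arrays 1, 3 and 5 it was at -0.36 and did not pass (adjusted p = 0.0675). Of the other 4 probe sets of Eif5, 2 were lower, at -1.10 and -0.84. Eif6, which keeps the large subunit from joining too early, read 9.81, 9.98 and 10.34 in CD34+ and 10.67, 10.96 and 11.22 in CD34- arrays, without overlap. Its difference was -0.91 (SE 0.12, adjusted p = 0.000154), and it was -0.77 without CD34+ arrays 1, 3 and 5 (adjusted p = 0.00274). The further probe set of Eif6 did not pass (-0.25, adjusted p = 0.0901 over all probe sets).

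**Figure D3:**
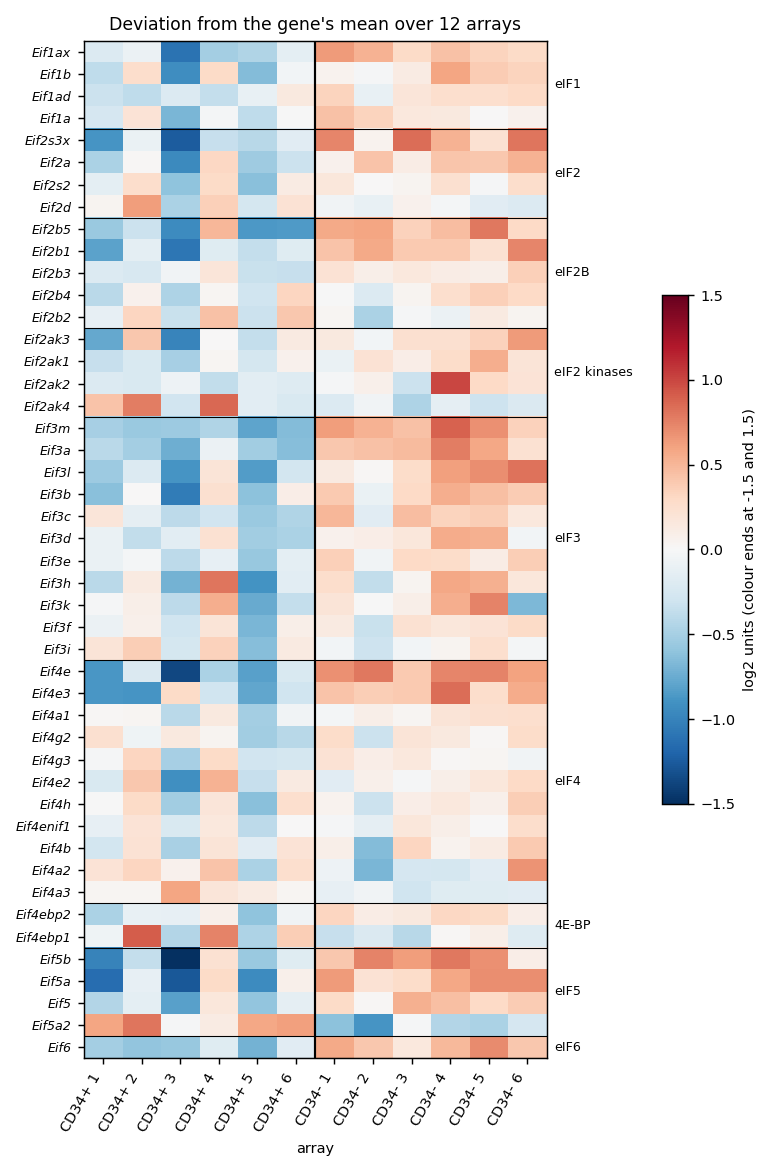
Deviation of each initiation factor gene (rows, grouped by factor) from its own mean over the 12 arrays (columns), in log2 units, blue for below and red for above. CD34+ array 3 holds the lowest value of the 12 for 20 of the 46 genes, a count that was not taken over all genes. Eif3m, Eif3a, Eif4e and Eif6 are blue in nearly every CD34+ array and red in the CD34- arrays.

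The CD34+ arrays were not alike. The median over the 46 members was 8.12, 8.29 and 8.44 in CD34+ arrays 3, 5 and 1, 8.63 to 8.84 in CD34+ arrays 2, 4 and 6, and 8.71 to 8.96 in the CD34- arrays. The median over all genes was 5.27, 5.30 and 5.28 in CD34+ arrays 3, 5 and 1. It was 5.33 to 5.39 in CD34+ arrays 2, 4 and 6 and 5.30 to 5.38 in the CD34- arrays. For 36 of the 46 members the lowest of the 12 values was in CD34+ array 1, 3 or 5. The same count was not taken over all genes or over genes of similar level, so it is not shown to be particular to the members. CD34+ arrays 1, 3 and 5 are those with the narrow spread over probe sets, and their part in the falls was not tested. The fit was also run without them, on CD34+ arrays 2, 4 and 6 and the CD34- arrays. With fewer arrays a call can be lost with little change in size. Eif1ad went from -0.41 to -0.40 (adjusted p = 0.0719 by limma) and Eif3d from -0.46 to -0.44 (adjusted p = 0.130). Eif1ax, Eif2b1, Eif2b5, Eif2s3x, Eif3a, Eif3c, Eif3m, Eif4e, Eif4e3, Eif5b and Eif6 were then still called lower. Eif2b2, Eif2d, Eif2ak4, Eif4ebp1 and Eif5a2 were called higher.

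**Figure D4:**
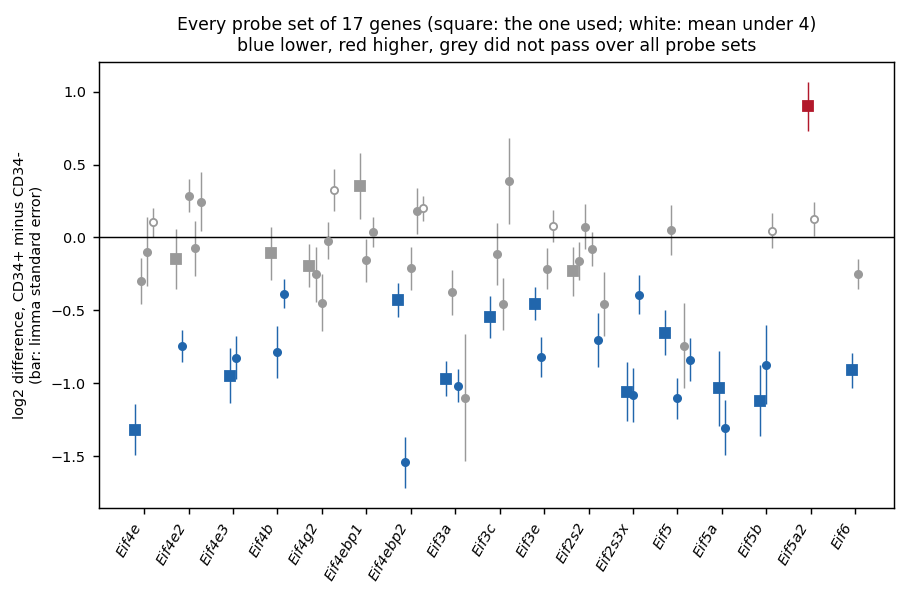
Log2 difference (CD34+ minus CD34-, y axis, with limma's standard error) of every probe set of 17 initiation factor genes, squares for the probe set used and white symbols for probe sets with a mean under 4. All probe sets of Eif2s3x, Eif4e3 and Eif5a lie below 0 and are called lower, while for Eif4e only the square at -1.32 is.

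The 46 genes had 131 probe sets, and 36 genes had more than 1. Genes called lower had 41 further probe sets, of which 11 were lower, 30 did not pass and 0 were higher (limma, adjusted over the 34945 probe sets tied to 1 gene). Genes that did not pass had 43, of which 6 were lower and 1, of Eif2d, was higher. Over all genes 18.1% were lower and 7.99% higher. The shares over the 34945 probe sets were not taken, so these counts are not set against those of other probe sets. By Affymetrix naming, 24 of the probe sets used end in _at, 13 in _a_at (transcripts of 1 gene), 4 in _s_at (several transcripts that may be of different genes) and 5 in _x_at (probes that may bind other sequences). Values of the 9 genes read by _s_at and _x_at probe sets, among them Eif3m, Eif5a, Eif3c and Eif4ebp1, may hold signal of related sequences.

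Lists of other translation genes are given beside the 18.1% lower and 7.99% higher of all genes. Among genes with a mean of at least 4 these shares were 27.3% and 9.06%. Of 12 genes of initiation partners 7 were lower and 0 higher (median -0.50), led by Gcn1 (-0.80), which activates GCN2, and the reinitiation factor gene Denr (-0.80), with Dhx29 at -0.79. Of 12 genes on the elongation and release list 7 were lower and 0 higher (median -0.45), with Eef2 at -1.09, Eef1e1 at -0.89 and the release factor gene Gspt1 at -0.86. Eef1e1 was listed by its symbol, though its product is a partner of the tRNA synthetases. Ribosome biogenesis genes had 13 lower and 0 higher of 22 (median -0.51), among them Nop58 (-2.17), Ncl (-1.24) and Nolc1 (-1.12). Genes of tRNA synthetases and their partners had 7 lower and 0 higher of 21 (median -0.34), with Rars at -1.10, Vars at -0.95 and Tars at -0.94. Cytosolic ribosomal protein genes had 4 lower and 1 higher of the 29 measured of 43 (median -0.23). Their share of 13.8% lower is near the 18.1% of all genes and below the 27.3% of genes with a mean of at least 4. Rplp0 (-0.97), Rps19 (-0.96) and Rpl6 (-0.55) were lower and Rpl37 (0.53) was higher.

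The list of mTOR and MNK signalling genes, upstream of initiation, had 14 measured. Of these, 5 were lower and 0 higher (median -0.40), beside 18.1% lower and 7.99% higher of all genes. Rictor (-1.24), Tsc2 (-0.83) and Sesn2 (-0.51) were lower, and Mtor itself was at -0.15 (adjusted p = 0.341 by limma). The list joins genes that promote and genes that restrain mTOR, among the latter Tsc2 and Sesn2, so its count gives no direction of control. Downstream, of 14 targets of the stress response that starts at eIF2 phosphorylation, 7 were lower and 1 higher (median -0.51), and Sesn2 and Ddit4 stand in both lists. Atf3 (-1.59), Psat1 (-0.87) and Atf4 (-0.80) were lower and Chac1 (0.54) was higher. Transcript levels of these genes do not report the phosphorylation of eIF2 or of the eIF4E-binding proteins.

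**Figure D5:**
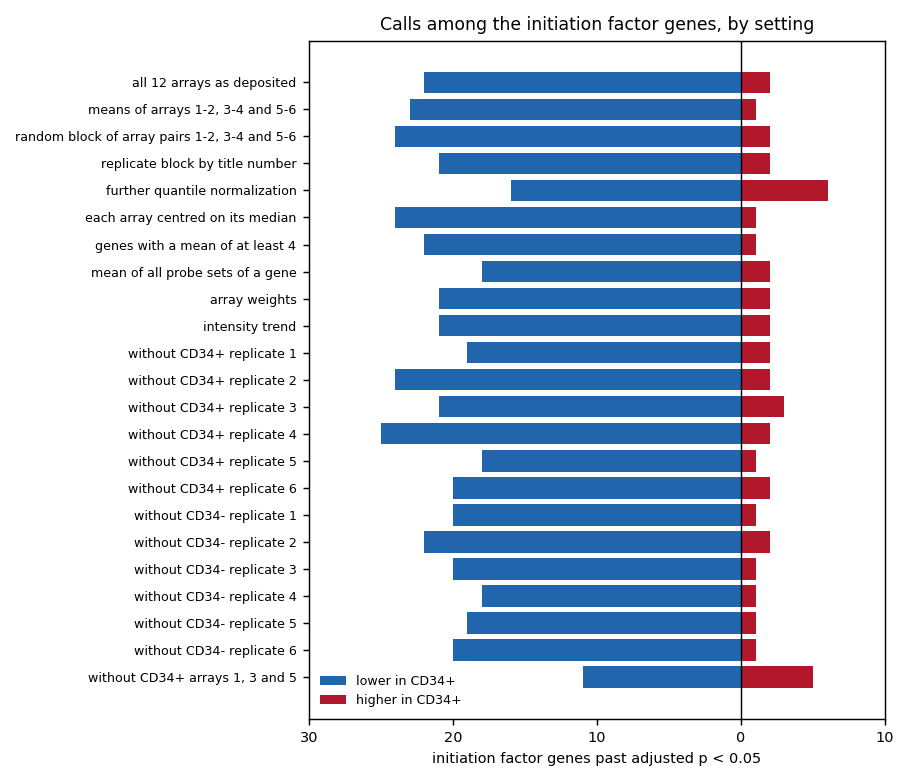
Number of initiation factor genes called lower (blue, to the left) and higher (red, to the right) in CD34+ cells at a limma adjusted p under 0.05, for the 12 arrays as deposited and for each alternative setting. The lower calls range from 11, without CD34+ arrays 1, 3 and 5, to 25, without CD34+ array 4, and the higher calls from 1 to 6. In these 2 settings 10.4% and 21.4% of all genes were called lower.

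Across all 22 alternative settings, 8 genes were called lower in each of them, Eif2s3x, Eif2b1, Eif2b5, Eif3a, Eif3m, Eif4e, Eif5b and Eif6, and 1 gene, Eif5a2, was called higher in each. None of the 24 genes called with the 12 arrays changed sign in any setting run, and 12 of the 22 that did not pass were called in 1 or more of them. These counts over settings were not taken over all genes, so they are not shown to be particular to the members.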

How the data were processed

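RNA of each fraction was hybridised to Affymetrix mouse whole-genome arrays, per the labels. The authors deposited log2 expression values for every probe set on each array, computed with RMA, per the submitters' processing notes. Its version, and whether all 12 arrays were normalized together, are not given in the sources used here. Of 45101 probe sets 64 controls were set aside. The platform annotation tied 34945 probe sets to 1 gene, 932 to several and 9160 to none. RMA gives no detection call, and the number of arrays limits the precision.

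A linear model with moderated variance (limma 3.58.1, R 4.3.3) compared the fractions over 18193 genes, two-sided, with calls at an adjusted p under 0.05. The code was tested on simulated data. The same fit over all probe sets gave the other probe sets. Which arrays carry the same RNA is not told by the titles, so 12 arrays entered as separate samples and p-values are too small wherever arrays of 1 RNA are alike.

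The members and lists were chosen with earlier results of these data known. Values are given by array for the 6 largest falls and rises and for fixed paralogue sets, and other members by their difference. From each pathway list up to 3 genes per direction are named, by size. Mtor, Cd34, Cd3g and Cd3e, and array values of Eif3a, Eif6 and Eif2b1, were added after their values were seen. Array values are the lowest, median and highest of 6. Promoters came from RefSeq (GRCm38.p6).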

Additional observations from a re-analysis of the deposited data

Results flagged for a closer look

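In 5 cases 1 array lay apart from the other 5 of its fraction by more than Dixon's critical value (at 95%) for the gap relative to the range. About 1 in 20 groups exceeds that limit by chance, and 92 groups were looked at. CD34- array 2 was lowest for Eif1ad, at 7.42 with the next array at 7.71, for Eif2b2, at 8.15 with the next at 8.55, for Eif3f, at 11.88 with the next at 12.35, and for Eif4b, at 8.84 with the next at 9.54. CD34+ array 3 was highest for Eif4a3, at 4.52 with the next at 4.11.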

How the results depend on the processing

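The count of initiation factor genes called lower was 22 and lay between 16 and 24 under the planned settings that kept all 12 arrays. It lay between 18 and 25 on leaving out 1 array, and was 11 when CD34+ arrays 1, 3 and 5 were left out together, which was chosen after seeing the data. The share of all genes called lower moved too, from 13.7% to 27.3% under those planned settings and from 14.4% to 21.4% on leaving out 1 array. The share of all genes called higher moved from 4.95% to 11.5% and from 5.72% to 11.4%. The count of initiation factor genes called higher was 2. It was 1 with means of arrays 1-2, 3-4 and 5-6, with each array centred on its median and among genes with a mean of at least 4, and it was 6 after the further quantile normalization, 5 without CD34+ arrays 1, 3 and 5, and 1 to 3 on leaving out 1 array. Arrays 1-2, 3-4 and 5-6 are an assumed pairing. The values went against it in CD34+, where array 1 correlated best with 5, 2 with 6, 3 with 5 and 4 with 6, and the block correlation was -0.16. With these means Eif2b3 (adjusted p = 0.0762), Eif3d (0.0557) and Eif4a3 (0.0775) did not pass. Centring shifted the median of all genes by -0.10. The members' median minus that of all genes was -0.45 as deposited, -0.18 after the further quantile normalization and -0.27 among genes with a mean of at least 4. The labels do not tell whether the numbers in the titles pair the arrays. Same-numbered arrays deviated together for numbers 1, 3, 4 and 6 (correlations of 0.22 to 0.50) but not for 2 (-0.27) and 5 (-0.17). These correlations cannot settle it, since arrays of a fraction also differed in their spread over probe sets. With the title number as a replicate block, 21 members were lower and 2 higher. No gene called with the 12 arrays reversed, but members that did not pass did. After the further quantile normalization Eif2s2 was at 0.039, Eif2b4 at 0.052, Eif4a1 at 0.012, Eif4b at 0.17, Eif4e2 at 0.15, Eif4enif1 at 0.18, Eif4g3 at 0.12 and Eif4h at 0.031. Without CD34+ arrays 1, 3 and 5 Eif2s2 was at 0.11, Eif2b4 at 0.016, Eif3f at 0.0058, Eif3h at 0.059, Eif4b at 0.15, Eif4e2 at 0.28, Eif4enif1 at 0.065, Eif4g3 at 0.033 and Eif4h at 0.17. With the mean of all probe sets Eif2b2 was at -0.070, Eif3i at -0.18 and Eif4g3 at 0.15, and with centring Eif3i was at -0.054. On leaving out 1 array Eif3i ranged from -0.021 to 0.18 and Eif4e2 from -0.27 to 0.021. The cause of these changes was not tested. The deposited values hold no background measure, so low probe sets could only be set beside the Trpn controls.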
